A study of Mus musculus with 9 samples.

Results

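Neutrophil granule genes were examined in the main olfactory epithelium (MOE), the sensory lining of the nose. Such genes can mark immune and bone marrow cells carried along in a dissection. Taken by symbol from a list, the 8 genes were S100a8, S100a9, Elane, Mpo, Ngp, Camp, Ltf and Mmp8, of 24421 gene rows in the count table. Of these, Ltf is also made by glands, and it supplied 93.57 to 98.41% of their summed level in each library. The sum of all 8 is therefore not a measure of such cells. RNA-seq had been performed on whole MOE from 9 mice of 1 line, made by CRISPR-Cas9, that lacks TAAR enhancer 1, a regulatory sequence in the cluster of trace amine-associated receptor (Taar) genes. The mice were wild type (WT), heterozygous (het) or homozygous (homo) littermates, 3 of each. The labels name no treatment. All 9 are labelled C57BL/6 and postnatal day 14, whereas the reporting summary of the study describes a mixed strain background and older animals for this line, and which of these holds for the libraries was not resolved. The deletion is in the germline, the study used a single line, and the libraries come from whole dissected tissue, so blood, bone and glands of the nose can contribute RNA. In such bulk samples, fewer cells of a type and less RNA per cell cannot be told apart.

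Neutrophils fill their granules in sequence while they mature in the bone marrow. Azurophil granules are made at the promyelocyte stage and hold the serine protease neutrophil elastase (Elane) and myeloperoxidase (Mpo). Specific and gelatinase granules follow, with lactoferrin (Ltf), the cathelicidin Camp, the neutrophilic granule protein Ngp and the collagenase Mmp8. The calcium-binding proteins S100a8 and S100a9, which pair to form calprotectin, lie in the cytosol. Their mRNA persists in the neutrophils of the blood and is also made by monocytes. The mRNA of many granule proteins, though not necessarily of each, is largely lost before a neutrophil leaves the marrow. Lactoferrin and a few other granule proteins are also secreted by glands and mucosal epithelia.

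Reads assigned to genes numbered from 24583906 to 32631951 a library, and 3 reads of a gene then equalled 0.0916 to 0.122 CPM, the read count as a rate over a library total scaled by edgeR's TMM method. The tissue showed its defining transcripts, with the olfactory neuron gene Omp at 3040 to 3550 CPM and the sustentacular cell gene Cyp2g1 at 2070 to 2330 CPM. Reads of Taar2, Taar3, Taar4 and Taar5, the receptors used to check the deletion, summed to 802 in WT, 507 in het and 5 in homo mice. Within a genotype no pair of libraries was alike to within counting error, the lowest ratio of chi-square to its degrees of freedom being 4.34. Some libraries stood apart from others of their genotype. Vomeronasal receptor genes summed to 68.1 CPM in het replicate 1, 120 in homo replicate 2 and 69.5 in homo replicate 3, against 14.6 to 17.3 CPM in the 6 others. Their means were 15.2 ± 0.799 CPM in WT, 33.6 ± 29.9 in het and 68.9 ± 51.3 in homo mice (SD, n = 3), so this content was uneven across the genotypes. Several nasal gland genes were lowest in het replicate 3 and homo replicate 3, and their values are given beside those of Ltf below.

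The promoters of 4 members are shown because they represent each role and carry the letters of a motif for a factor of granulocyte development. In the RefSeq promoter table for GRCm38.p6, all 8 members had an entry with 250 bases before and 50 bases after the start of the gene. Each is printed from the far end of that window up to the first base before the start in RefSeq or in GENCODE M21, whichever comes earlier, 5′ to 3′ on the strand of the gene. Ltf lies at chr9:111019042-111019270 (+), Ngp at chr9:110419558-110419746 (+), S100a9 at chr3:90695722-90695971 (-) and Elane at chr10:79886062-79886246 (+). Capitals mark the C/EBP letters TTGCNNAA in Ltf, Ngp and S100a9 and the PU.1 letters GAGGAAG in Elane, both searched on both strands.
Ltf: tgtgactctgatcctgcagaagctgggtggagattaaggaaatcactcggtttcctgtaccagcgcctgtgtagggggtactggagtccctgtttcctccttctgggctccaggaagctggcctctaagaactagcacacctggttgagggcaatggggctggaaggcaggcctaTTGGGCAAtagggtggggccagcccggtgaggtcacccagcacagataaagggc
Ngp: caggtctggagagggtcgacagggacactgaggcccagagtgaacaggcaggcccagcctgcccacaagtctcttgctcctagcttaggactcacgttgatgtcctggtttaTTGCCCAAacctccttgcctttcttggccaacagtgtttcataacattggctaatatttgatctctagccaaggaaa
S100a9: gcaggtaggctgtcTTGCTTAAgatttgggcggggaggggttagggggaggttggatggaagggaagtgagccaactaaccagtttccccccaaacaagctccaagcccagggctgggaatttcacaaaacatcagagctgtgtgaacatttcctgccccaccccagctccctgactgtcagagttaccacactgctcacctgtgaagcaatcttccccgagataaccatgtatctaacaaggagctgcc
Elane: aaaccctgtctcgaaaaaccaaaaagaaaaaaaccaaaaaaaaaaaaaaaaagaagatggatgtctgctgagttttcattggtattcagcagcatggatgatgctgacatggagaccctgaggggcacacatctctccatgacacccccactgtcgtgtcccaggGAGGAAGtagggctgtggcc

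Over the full windows of 300 bases, the C/EBP letters occurred in 4 of the 8 members (S100a9, Mmp8, Ngp and Ltf) and in 10.8% of 32851 mouse promoters. The PU.1 letters also occurred in 4 members (S100a8, Mmp8, Elane and Mpo), against 13.6% of all promoters, and the matches of the motifs did not overlap. Camp held neither. The matches are a description of these letters and not of bound sites. In Ltf the match began 75 bases before the RefSeq start with TTGGGCAA. Ngp had TTGCCCAA from 138 bases before its RefSeq start, and the same TTGGGCAA letters as Ltf from 11 bases before it, a position inside the longer GENCODE transcript and so not printed above. These 2 genes shared the letters and lay 596 kb apart on chromosome 9, yet they differed in level by 199-fold per length.

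Levels were compared between genes per kilobase of exon. Ltf was by far the most abundant member, at a mean of 164 CPM per kilobase over the 9 libraries (77.1 to 245). S100a9 followed at 17.3 (14.4 to 20.5) and S100a8 at 6.16 (5.15 to 7.35) CPM per kilobase. The libraries of these 3 genes did not overlap on that scale, and each also lay above every library of the next gene, Ngp. Ngp at 0.825 (0.57 to 1.23) and Camp at 0.667 (0.265 to 1.63) CPM per kilobase overlapped. Mmp8 came next at 0.197 (0.0838 to 0.321), then Elane at 0.181 (0.031 to 0.471) and Mpo at 0.0689 (0.0237 to 0.119). Each of these last 3 overlapped its neighbour, so their order was within the spread between libraries. Ltf therefore exceeded S100a9 by 9.5-fold, S100a8 by 26.7-fold, Camp by 246-fold, Mmp8 by 833-fold, Elane by 907-fold and Mpo by 2384-fold per length.

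Ranked by mean CPM, which is not scaled for length, among the 20213 genes tested, Ltf lay at percentile 99.4 and the 7 others between 8.52 (Elane) and 41.3 (S100a9). Ltf alone supplied between 93.57 and 98.41% of the summed CPM of the 8 genes in each library. As a check of the label, the other genes of the azurophil and specific granule lists were examined, and they varied from near 0 to abundant. Cathepsin G (Ctsg) had 3 reads in WT replicate 1, 3 in homo replicate 3 and none elsewhere, and Ms4a3, a promyelocyte gene, had 4 reads in all 9 libraries. The specific granule lectin Fcnb lay between 0 and 0.141 CPM. In contrast, mean CPM was 4.71 for Prtn3, 4.76 for Cybb, 3.27 for Itgb2l, 11.8 for Cd177, 9.74 for Hp, 39.1 for Lcn2 and 233 for Mmp9. Since Ltf stood so far above the other members, the sum was read with and without it.

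Elane and Mpo, the azurophil genes, were barely detected. Elane had 43 reads in all. In WT mice these were 1, 1 and 12 reads (0.0402, 0.0305 and 0.464 CPM), in het mice 5, 5 and 4 reads (0.178, 0.189 and 0.135 CPM), and in homo mice 5, 2 and 8 reads (0.176, 0.0813 and 0.309 CPM). WT replicate 3 was the highest library and the other WT libraries the lowest, so the genotypes overlapped entirely. Single libraries carried wide counting intervals, for instance 0.24 to 0.81 CPM (95%, exact Poisson, counting error only) for the 12 reads and 0.00102 to 0.224 CPM for the 1 read of WT replicate 1. Elane lies on chromosome 10 (79886247 to 79888215, + strand of GRCm38) 3.07 kb after Prtn3, which encodes proteinase 3, another azurophil protease. Prtn3 was counted at 3.49 to 6.27 CPM, but it overlaps Plppr3 on the opposite strand and the strand setting of the counting was not given in the sources used here.

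Mpo had 59 reads. The CPM was 0.161, 0.214 and 0.387 in WT, 0.285, 0.189 and 0.406 in het, and 0.247, 0.0813 and 0.155 in homo mice. Het replicate 3 and WT replicate 3 were highest and homo replicate 2, with 2 reads, was lowest. Mpo (chromosome 11, 87793581 to 87804413, +) overlaps the antisense gene Gm11505, so the same caution on strand applied.

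Of the specific granule genes, Ngp was the best measured after Ltf, with 248 reads. It reached 0.803, 0.733 and 1.51 CPM in WT, 1.18, 1.17 and 0.879 in het, and 1.34, 0.772 and 0.696 in homo mice. WT replicate 3 and homo replicate 1 were highest, and each genotype had libraries on both sides of the others. Camp, with 124 reads, gave 0.201, 0.275 and 1.24 CPM in WT, 0.606, 0.227 and 0.609 in het, and 0.528, 0.406 and 0.464 in homo mice. The 32 reads of WT replicate 3 stood out again, with a counting interval of 0.846 to 1.75 CPM that did not reach the point value of any other library. Camp (chromosome 9, 109847379 to 109849617, -) and Ngp (110419747 to 110423012, +) are separated by 570 kb.

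Mmp8 (chromosome 9, 7558456 to 7568485, +), which cleaves fibrillar collagen, had 120 reads. Its CPM was 0.321, 0.428 and 0.348 in WT, 0.534, 0.529 and 0.778 in het, and 0.74, 0.203 and 0.426 in homo mice. All 3 het libraries lay above all 3 WT libraries, while the homo libraries lay on either side of the WT libraries and overlapped both genotypes.

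S100a8 and S100a9 made up between 79 and 89.1% of the summed CPM of the 7 genes other than Ltf. S100a8 was at 4.50, 3.57 and 5.10 CPM in WT, 4.20, 3.86 and 4.80 in het, and 4.51, 3.74 and 4.22 in homo mice. S100a9 was at 8.03, 10 and 9.74 CPM in WT, 7.52, 7.52 and 10.7 in het, and 10.7, 8.17 and 8.82 in homo mice. The genotypes overlapped for both genes, and the highest library exceeded the lowest by 1.43-fold for S100a8 and 1.42-fold for S100a9. They are neighbours on chromosome 3, S100a8 at 90668978 to 90670035 (+) and S100a9 at 90692632 to 90695721 (-), 22.6 kb apart.

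Ltf (chromosome 9, 111019271 to 111042767, +), the iron-binding protein lactoferrin, was at 509, 611 and 799 CPM in WT, 769, 847 and 266 in het, and 383, 598 and 320 in homo mice. Het replicates 1 and 2 were among the 3 highest libraries, whereas het replicate 3 was the lowest of all 9. Counting error did not limit these values, since the lowest rested on 7868 reads. The SD of the log2 CPM of Ltf within genotypes was 0.627. Its biological coefficient of variation, as edgeR estimates it after shrinkage toward the trend over genes, was 26.3%, or 3.68 times the 7.14% typical of genes of its abundance. For the other members this ratio was between 0.885 (Mpo) and 1.7 (Camp), and S100a8 (11.4% against 12.3%) and Mmp8 (25.5% against 26%) lay close to the trend.

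**Figure D1:**
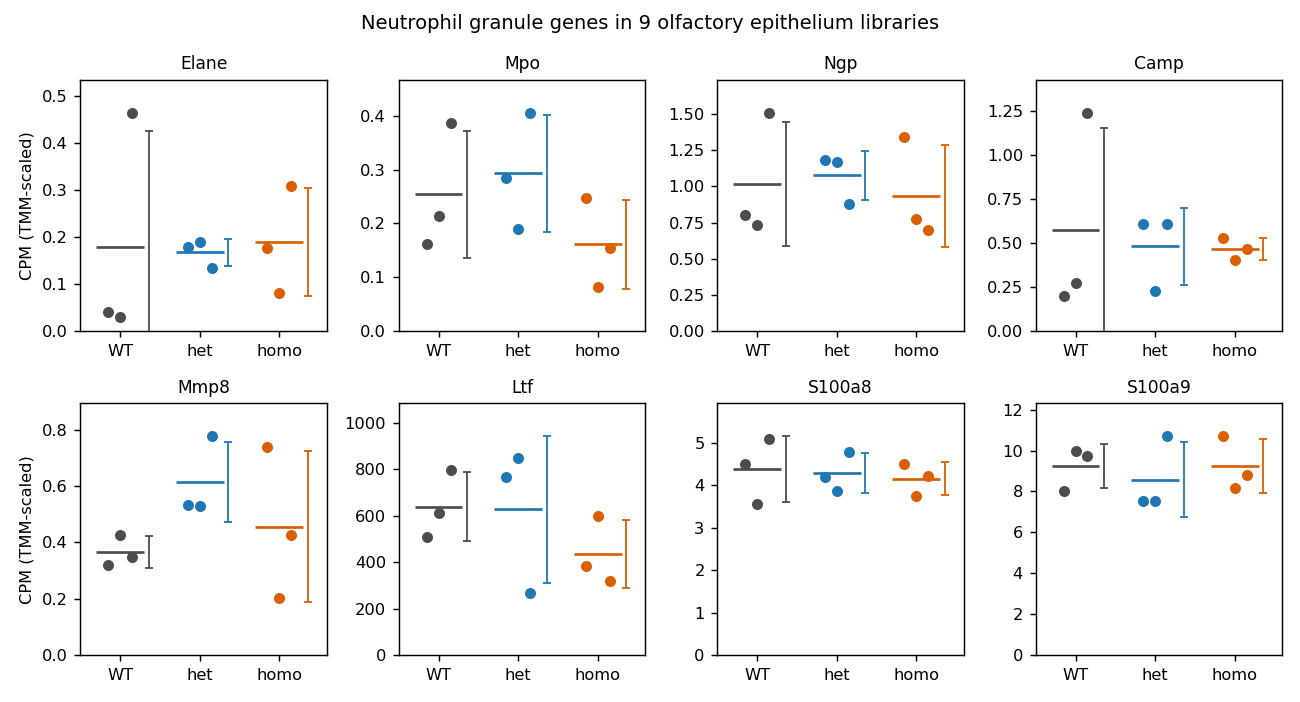
CPM (TMM-scaled, linear axis from 0) of each of the 8 genes in the 3 WT, 3 het and 3 homo libraries, each panel with its own scale. Points are libraries, horizontal bars are means and vertical bars are ± 1 SD (n = 3), with bars that would run below 0 stopped at 0. WT replicate 3 stands above the other WT libraries in Elane, Ngp and Camp, het libraries lie above WT libraries only in Mmp8, and in Ltf the lowest point is a het library at 266 CPM.

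The first comparison asked whether loss of both copies of the enhancer was accompanied by a change of these genes. No member passed the test in homo against WT mice. Of the 8, 0 were called at an adjusted p under 0.05 (edgeR, quasi-likelihood test, Benjamini-Hochberg adjustment over all 20213 genes), where 10 genes, or 0.0495% of those tested, were called. None of the 8 had an unadjusted p under 0.05 in this fit or with DESeq2, against 9.26% of all genes in this fit, although 1 member did in 7 of the 18 alternative fits. The point estimates of 6 members lay below WT and of 2 above, with a median log2 fold change of -0.081 beside -0.00057 over all genes. No member separated the genotypes fully, against 15.4% of genes tested.

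Ltf had the lowest p. The mean was 434 ± 146 CPM (SD, n = 3) in homo and 640 ± 147 CPM in WT mice, a log2 fold change of -0.56 ± 0.31 (SE) with an edgeR adjusted p = 0.617. The 95% interval of the fold, 0.43 to 1.07, included no difference. For S100a9 the means were 9.22 ± 1.30 and 9.27 ± 1.09 CPM, with a log2 fold change of -0.0088 ± 0.15 and an interval of 0.797 to 1.24-fold. S100a8 was similarly bounded in this fit, at -0.07 ± 0.16 with an interval of 0.754 to 1.2-fold. These 95% bounds concern RNA level under this model and are not adjusted for the number of genes. With vomeronasal receptor level added as a covariate, the estimates were 0.224 for S100a9 and 0.028 for S100a8. The 5 genes Elane, Mpo, Ngp, Camp and Mmp8 were far less constrained. They are called marrow-stage genes here, a label that was not tested in these libraries. Elane was at 0.14 ± 0.85 with an interval from 0.315 to 3.86-fold, Mpo at -0.61 ± 0.63 (0.26 to 1.65-fold) and Camp at -0.26 ± 0.59 (0.349 to 1.99-fold), with few reads and a wide spread between mice. Ngp was at -0.091 ± 0.34 (0.565 to 1.56-fold) and Mmp8 at 0.33 ± 0.47 (0.627 to 2.5-fold). Leaving out WT replicate 3 alone turned Elane to a log2 fold change of 2.31 and Camp to 0.95, with neither called.

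Loss of 1 copy was examined in het against WT mice. Again 0 of 8 members were called by edgeR, in a comparison where 1 gene, or 0.00495%, was called, and 0 had an unadjusted p under 0.05 in this fit or with DESeq2 against 3.25% of all genes in this fit (1 member did in 3 of 18 alternatives). Adjusted p was 1 for all 8. The median log2 fold change was -0.027 beside 0.0033 over all genes, with 3 estimates above and 5 below WT. Mmp8 was the single member whose groups did not overlap, against 8.68% of all genes. It averaged 0.614 ± 0.142 CPM in het and 0.366 ± 0.0554 CPM in WT mice, a log2 fold change of 0.73 ± 0.45 with an interval of 0.855 to 3.23-fold and an edgeR adjusted p = 1. Ltf differed by -0.028 ± 0.31 (0.624 to 1.54-fold), a value that het replicate 3 decided in its sign, being 0.34 without that library. Without WT replicate 3, Elane was at 2.12 and Camp at 0.99 on the log2 scale, both again uncalled.

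In homo against het mice, 0 of 8 members were called by edgeR, where 23 genes, or 0.114%, were called, and 0 had an unadjusted p under 0.05 in this fit or with DESeq2 against 10.4% of all genes in this fit (1 member did in 4 of 18 alternatives). The median log2 fold change was -0.12 beside -0.0017 over all genes, 2 members above and 6 below, and no member was free of overlap against 14.1% of genes. Mpo had the lowest estimate, -0.83 ± 0.61, at 0.228 to 1.38-fold. Ltf was at -0.53 ± 0.31, an interval of 0.439 to 1.09-fold, with an edgeR adjusted p = 0.578. It was the only member whose call a single library changed. With het replicate 3 left out, Ltf stood at -0.90 with an edgeR adjusted p = 0.0441, in a fit that called 195 genes in place of 23. With both het replicate 3 and homo replicate 3 left out, Ltf stood at -0.72 with an edgeR adjusted p = 0.127, a larger difference than with all 9 libraries, and 0 members were called.

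**Figure D2:**
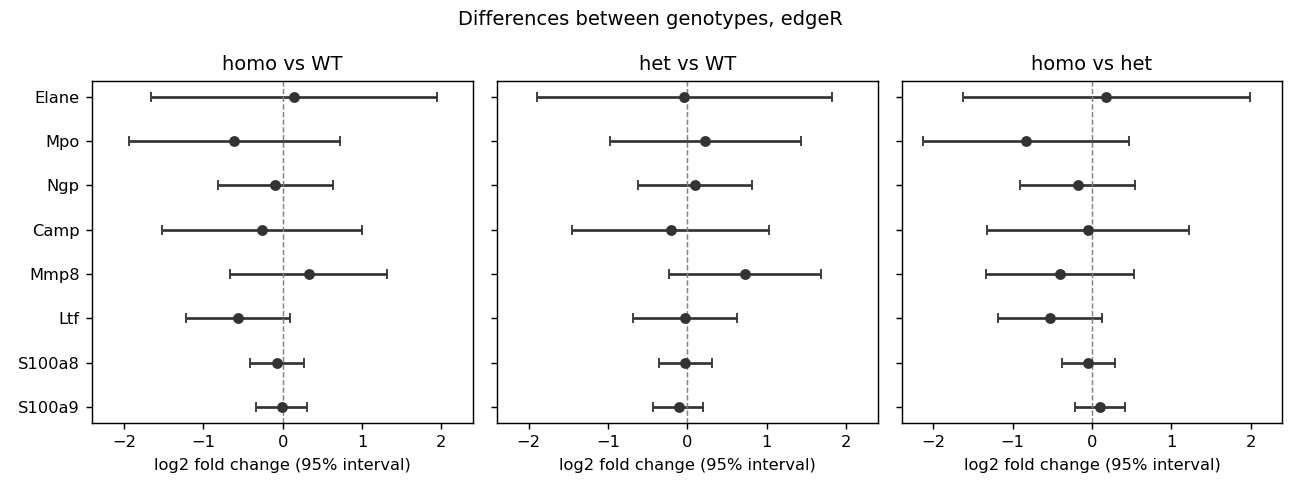
Log2 fold change of each member in the 3 pairs of genotypes, as dots with 95% intervals from the edgeR fit on all 9 libraries. Every interval crosses 0, and those of S100a8 and S100a9 are narrow beside those of Elane, which span from 0.315 to 3.86-fold in homo against WT mice.

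Summed over all 8 genes, CPM was 656 ± 150 in WT, 643 ± 313 in het and 449 ± 144 in homo mice (SD, n = 3). Without Ltf the sums were 16 ± 2.45, 15.5 ± 2.46 and 15.6 ± 2.42 CPM. The lower mean of homo mice in the sum of 8 therefore rested on Ltf. The 5 marrow-stage genes Elane, Mpo, Ngp, Camp and Mmp8 summed to 2.38 ± 1.35, 2.63 ± 0.281 and 2.21 ± 0.755 CPM. S100a8 with S100a9 gave 13.7 ± 1.16, 12.9 ± 2.28 and 13.4 ± 1.66 CPM.

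Single mice of a genotype differed more than the genotype means just given. Leaving Ltf aside, WT replicate 3 was the highest library in S100a8, Elane, Ngp and Camp, and het replicate 3 in S100a9, Mpo and Mmp8. WT replicate 3 was above the median library in 6 of 7 genes, homo replicate 1 in 6 and homo replicate 2 in 0. The marrow-stage genes summed to 3.94 CPM in WT replicate 3, against 1.53 and 1.68 CPM in the other WT mice and 1.54 CPM in homo replicate 2. Across the 9 libraries, which all pairs share, the log2 CPM of the 7 genes was positively correlated in all 21 pairs, with r from 0.07 to 0.74 and a median of 0.51. The 7 pairs that included Ltf had r from -0.57 to 0.43 with a median of -0.09, and 2 of them were positive.

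The genes most like the members were sought among 16167 genes with a mean of at least 1 CPM, by Pearson's r over the 9 libraries with the mean standardized profile of all 8. The closest was Dnase2a, a lysosomal nuclease, at r = 0.964, with 21 CPM in WT replicate 3 and its lowest value, 15.2 CPM, in homo replicate 2. AF251705 (0.913), the elongation factor gene Tcea2 (0.897), the microRNA gene Mirlet7d (0.889) and Tyrobp (0.883), a signalling adaptor of myeloid and natural killer cells, came next. Tyrobp likewise peaked in WT replicate 3, at 16.9 CPM, against 12.2 to 15 CPM elsewhere. The list continued with Gimap9 (0.88), Lgals12 (0.879), Fetub (0.879), Nfatc4 (0.874) and the odorant receptor gene Olfr1206 (0.865). With this many genes and 9 libraries, such values are a description of likeness.

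Ltf followed other genes. Among the 14 nasal gland genes listed, r with Ltf was 0.93 for Bpifb9b and Odam and 0.92 for Bpifb5, then 0.74 for Obp1a, and it was -0.11 for Bpifb4, -0.09 for Muc5b and -0.65 for Dcpp3. Bpifb9b, of a family of secreted lipid-binding proteins, was at 1340, 776 and 4010 CPM in WT, 2300, 2710 and 81.7 in het, and 705, 2200 and 105 in homo mice. Its 2 lowest libraries, het replicate 3 and homo replicate 3, were also the 2 lowest of Ltf. Odam, encoding a secreted epithelial protein, was lowest in the same libraries, with 0.913 and 1.01 CPM against 5.88 to 26.3 CPM in the 7 others. For Obp1a, an odorant-binding protein of nasal glands, those libraries held 137 and 121 CPM against 259 to 766 CPM. Bpifa1, with r = 0.71, was also lowest in these libraries, at 2870 and 2970 CPM, but its other libraries lay close, at 3050 to 4090 CPM. Its homo and its het libraries all lay below its WT libraries, where 15.4 and 8.68% of all genes separated in these pairs. The log2 fold changes were -0.33 ± 0.061 and -0.23 ± 0.061, with an edgeR adjusted p = 0.105 in homo against WT mice. Bpifb4, at 1930 to 2740 CPM, and the mucin gene Muc5b, at 349 to 513 CPM, had their lowest values in homo replicate 2 instead. The whole gland list summed to 7590 CPM in het replicate 3 and 7650 CPM in homo replicate 3, and to 8640 to 12800 CPM elsewhere. By genotype the list summed to 11000 ± 1530 CPM in WT, 10500 ± 2540 in het and 8660 ± 1020 in homo mice. In homo against WT mice 3 of the 14 genes lay above and 11 below WT, with 0 called. The part of gland tissue in the Ltf differences was not tested.

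Taken alone, the profile of Ltf was closest to Vipr1, the receptor of vasoactive intestinal peptide, with r = 0.989 over the 9 libraries and the same order of libraries from highest to lowest. The calcium pump gene Atp2a3 (0.987) and Car6 (0.978), a secreted carbonic anhydrase of salivary and nasal glands, followed. Car6 was at 66.7, 76.2 and 91.9 CPM in WT, 84.4, 105 and 25.1 in het, and 42.6, 82.1 and 39.2 in homo mice. Other genes with a like profile included Prom2, Mfsd4, Fxyd3, the epithelial transcription factor gene Ehf, Stpg1 and Foxj1, a regulator of motile cilia, at r from 0.974 to 0.959. None of the genes named here was among those closest to the mean of the 8. This profile was taken after the values of Ltf had been seen.

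**Figure D3:**
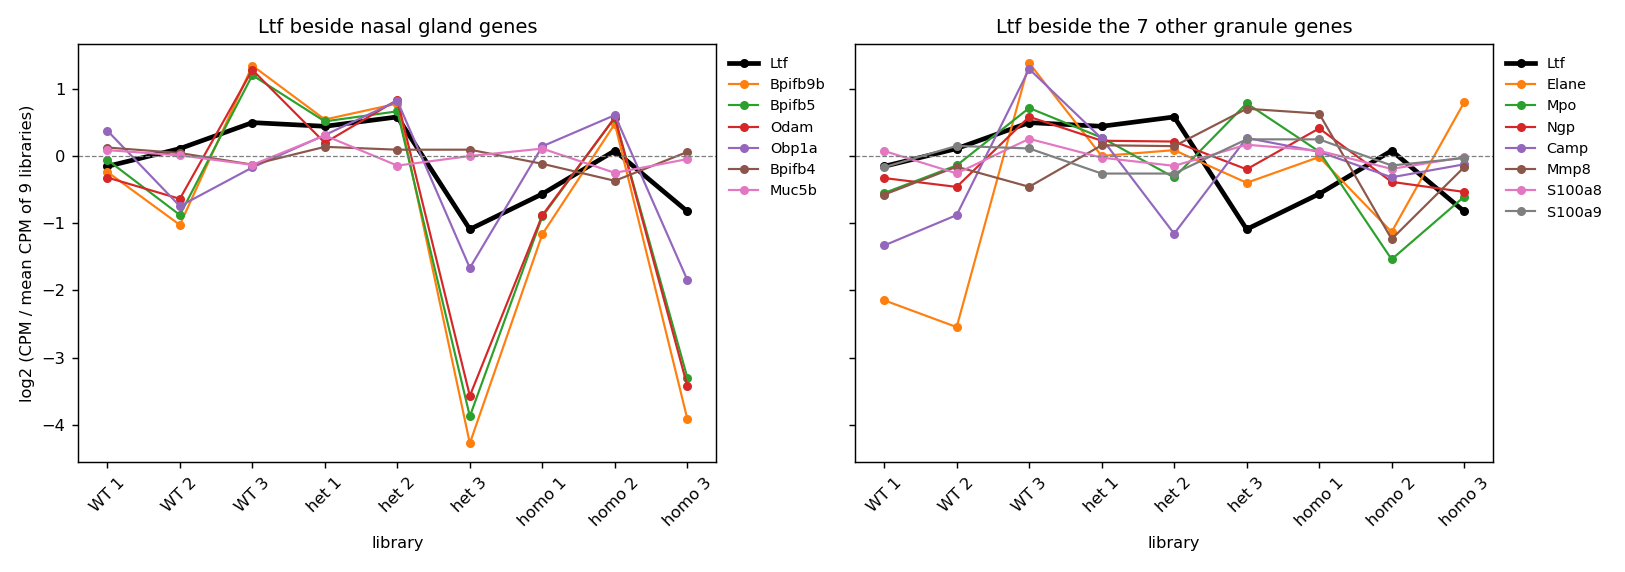
Level of Ltf (thick black line) in each of the 9 libraries beside 6 nasal gland genes (left) and beside the 7 other members (right), as log2 of the CPM over the mean CPM of that gene, with lines joining libraries only to guide the eye. In het replicate 3 and homo replicate 3, Ltf, Bpifb9b, Bpifb5, Odam and Obp1a lie at their lowest points while Bpifb4 and Muc5b do not, and the other granule genes do not dip together there.

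Lists of related genes and of other cell types gave no call either. Of 124 list genes tested other than the members, edgeR called 0 in each pair of genotypes, and 15 (12.1%) in homo against WT, 6 (4.84%) in het against WT and 17 (13.7%) in homo against het mice had an unadjusted p under 0.05, beside 9.26, 3.25 and 10.4% of all genes. The neutrophil lists themselves include the members. Of the 5 azurophil and promyelocyte genes 3 were tested, namely Elane, Mpo and Prtn3. Their median log2 fold change in homo against WT mice, 0.14, was the value of the member Elane. All 12 specific and gelatinase granule genes, among them Ngp, Camp, Ltf and Mmp8, were tested, with 6 above and 6 below WT and a median of -0.026. Besides Ltf, the most abundant were Mmp9, Lcn2, Cd177 and Hp. Gelatinase B (Mmp9) lay between 204 and 276 CPM, but it is also an osteoclast gene, and the osteoclast genes Acp5 and Ctsk had means of 362 and 407 CPM. Lipocalin 2 (Lcn2), an iron-scavenging protein that epithelia also secrete, was at 25.7, 27.3 and 41.3 CPM in WT, 54.6, 34.6 and 38.5 in het, and 78.9, 21.5 and 29.8 in homo mice. Its highest library, homo replicate 1, and its lowest, homo replicate 2, shared a genotype. Cd177, a neutrophil surface glycoprotein, was at 20.8, 12.2 and 13.1 CPM in WT, 11, 12.4 and 6.19 in het, and 11.8, 10 and 8.59 in homo mice. Every homo library lay below every WT library, where 15.4% of all genes separated in this pair in either direction. The log2 fold change of Cd177 was -0.59 ± 0.22 with an edgeR adjusted p = 0.45, so that it missed the threshold. In the same pair Lcn2 was at 0.48 ± 0.34. In het against WT mice Cd177 was at -0.64 ± 0.22 with an edgeR adjusted p = 1, and in homo against het mice at 0.047 ± 0.23. Haptoglobin (Hp) ranged from 6.43 to 18.5 CPM.

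Genes of circulating neutrophils gave similar sums in the 3 genotypes, while single genes varied more. The list summed to 27.9 ± 1.6 CPM in WT, 26.9 ± 3.65 in het and 27.8 ± 3.24 in homo mice, and of its 14 genes 13 had a row and 12 were tested. The members S100a8 and S100a9 supplied 13.7, 12.9 and 13.4 CPM of these sums. Csf3r, the receptor of the granulocyte growth factor G-CSF, ranged from 4.06 CPM in homo replicate 2 to 7.71 CPM in homo replicate 1. The chemokine receptor Cxcr2 lay between 1.66 and 2.77 CPM, the cytokine Il1b between 1.86 and 3.85 CPM and the activating receptor Trem1 between 0.348 and 1.22 CPM. Retnlg, a gene strongly expressed in mature mouse neutrophils, had only 0.0813 to 0.406 CPM. In homo against WT mice 7 of the 12 genes tested lay above and 5 below WT. Fpr1, with 29 reads in all, had 0, 1 and 2 reads in WT and 6, 4 and 5 in homo mice. Its homo libraries all lay above its WT libraries, at a log2 fold change of 2.26 ± 0.89 with an edgeR adjusted p = 0.456. Among the regulators of granulopoiesis, the late granule factor Cebpe was at 0 to 0.361 CPM and Gfi1 at 0.189 to 0.641 CPM. Cebpa was at 44.3 to 55.4 CPM and Spi1, which encodes PU.1, at 6.24 to 7.80 CPM. The 6 regulators had a median log2 fold change of 0.02 in homo against WT mice, with 3 on each side.

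Of the chemokines that attract neutrophils, Cxcl1 and Cxcl2 varied widely between mice. Cxcl1 was at 2.81, 11.9 and 0.193 CPM in WT, 8.66, 1.10 and 0.169 in het, and 2.36, 21.1 and 1.62 in homo mice. Cxcl2 was at 2.01, 6.96 and 0.193 CPM in WT, 3.35, 0.681 and 0.237 in het, and 0.986, 13.7 and 1.62 in homo mice. Homo replicate 2 was the highest library of both genes, and WT replicate 3 and het replicate 3 were the lowest of both, with 5 to 7 reads. For Cxcl1 the log2 fold change in homo against WT mice was 0.68 ± 1 with an edgeR adjusted p = 0.892, and for Cxcl2 it was 0.75 ± 0.89 with an edgeR adjusted p = 0.86. Cxcl5, the most abundant of the 6 attractants, spanned 13.3 to 26.6 CPM.

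Set beside the members, the ends of this order were reversed. Homo replicate 2, with 52.7 CPM of the 6 attractants, held the lowest sum of the 7 genes other than Ltf, 13.5 CPM. WT replicate 3 and het replicate 3, with 13.8 and 14.5 CPM of attractants, held the highest sums, 18.8 and 18.3 CPM. The libraries between did not follow a single order. Homo replicate 1 nearly matched het replicate 3 in the 7 genes, at 18.2 CPM, but had 23.8 CPM of attractants. Het replicate 2 was low in both (19.6 CPM of attractants and 13.7 CPM of the 7 genes). Vomeronasal receptor reads were high in homo replicate 2 and het replicate 1, the 2 libraries highest in attractants (52.7 and 39.3 CPM), but also in homo replicate 3, which had 17.7 CPM. The part of that tissue in the chemokine levels was not tested, and the pattern was noticed after the values had been seen.

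**Figure D4:**
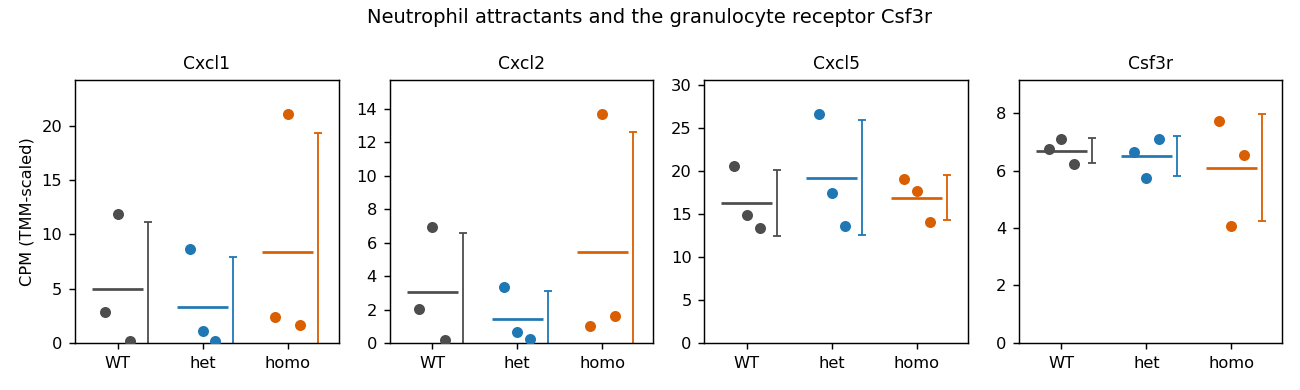
CPM of the neutrophil attractants Cxcl1, Cxcl2 and Cxcl5 and of the G-CSF receptor gene Csf3r in the 3 libraries of each genotype, each panel with its own linear axis from 0. Points are libraries, horizontal bars means and vertical bars ± 1 SD (n = 3), stopped at 0 where they would run below it. Cxcl1 reaches 21.1 CPM in 1 homo library that is also the lowest of all 9 in Csf3r, at 4.06 CPM.

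Lists of other cells of the marrow and blood were read beside the neutrophil genes, with no test of their order over libraries. Homo replicate 2, the lowest library in the sum of the 7 genes other than Ltf, was also the lowest in the sums of the erythroid (13.9 CPM), B cell precursor (7.56 CPM) and monocyte and macrophage (121 CPM) lists. Homo replicate 1 was close in B cell precursor genes (7.64 CPM), and het replicate 2 in monocyte and macrophage genes (123 CPM). Homo replicate 2 was not the lowest in the megakaryocyte and platelet list (41 CPM) or the eosinophil, basophil and mast cell list (83.5 CPM). In the T and NK cell list it was the highest (3.54 CPM). The highest library differed between these lists. Of the erythroid genes the most abundant was Alas2, which starts heme synthesis in red cell precursors, at 18.3 CPM in het replicate 2 and 5.81 to 9.55 CPM in the 8 others. The erythroid list summed to 36.3 CPM in het replicate 2 and to 19.7 CPM in WT replicate 3, the library highest in marrow-stage neutrophil genes. Slc4a1, the anion exchanger of red cells, differed by 1.07 ± 0.43 on the log2 scale in het against WT mice, with an edgeR adjusted p = 1. The adult haemoglobin genes Hba-a1, Hba-a2, Hbb-bs and Hbb-bt were listed at 0 in all 9 libraries, so that blood content could not be read from them. B cell precursor genes summed to between 7.56 and 10.7 CPM, most of it from Vpreb3. T and NK cell genes summed to 2.96 to 3.54 CPM.

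Genes of monocytes and macrophages, which can also supply S100a8 and S100a9 mRNA, summed to 134 ± 7.26 CPM in WT, 137 ± 15.7 in het and 132 ± 10.5 in homo mice. Csf1r, the receptor of macrophage growth factor, was the largest of them at a mean of 52.1 CPM, and lay between 46.5 and 61.5 CPM. Bone and osteoclast genes summed to 2270 ± 55.8, 2330 ± 197 and 2090 ± 35.4 CPM, and all 12 were tested with 4 above and 8 below WT in homo mice. The homo sums, 2050 to 2120 CPM, all lay below the WT sums, 2210 to 2320 CPM, while het sums spanned 2100 to 2460 CPM. In homo against WT mice the libraries of Ctsk (-0.26 ± 0.074, log2) and Mmp13 (-0.13 ± 0.053) separated downward and those of Bglap2 (0.19 ± 0.069) upward, with none called. The part of bone in other differences was not tested. The eosinophil, basophil and mast cell list was led by Hdc, the histamine-forming enzyme, at 68.3 to 89.6 CPM. It stood far above the next genes of the list, Siglecf and Ccr3, with means of 1 and 0.554 CPM, so the sum of this list followed Hdc. Of 14 genes on this list 11 were tested, with a median of 0.091 in homo against WT mice. Prg2, with 45 reads in all, had 8, 3 and 14 reads in WT and 1, 0 and 1 in homo mice. Its homo libraries all lay below its WT libraries, where 15.4% of all genes separated in this pair. The log2 fold change of Prg2 was -3.39 ± 0.95 with an edgeR adjusted p = 0.343. The other eosinophil genes did not share this direction, with Epx at 0.28 ± 0.73, Siglecf at 0.53 ± 0.35 and Ccr3 at -0.45 ± 0.43. Over the 11 genes tested, 6 lay above and 5 below WT. The 8 megakaryocyte and platelet genes had a median of -0.11 in the same pair.

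**Figure D5:**
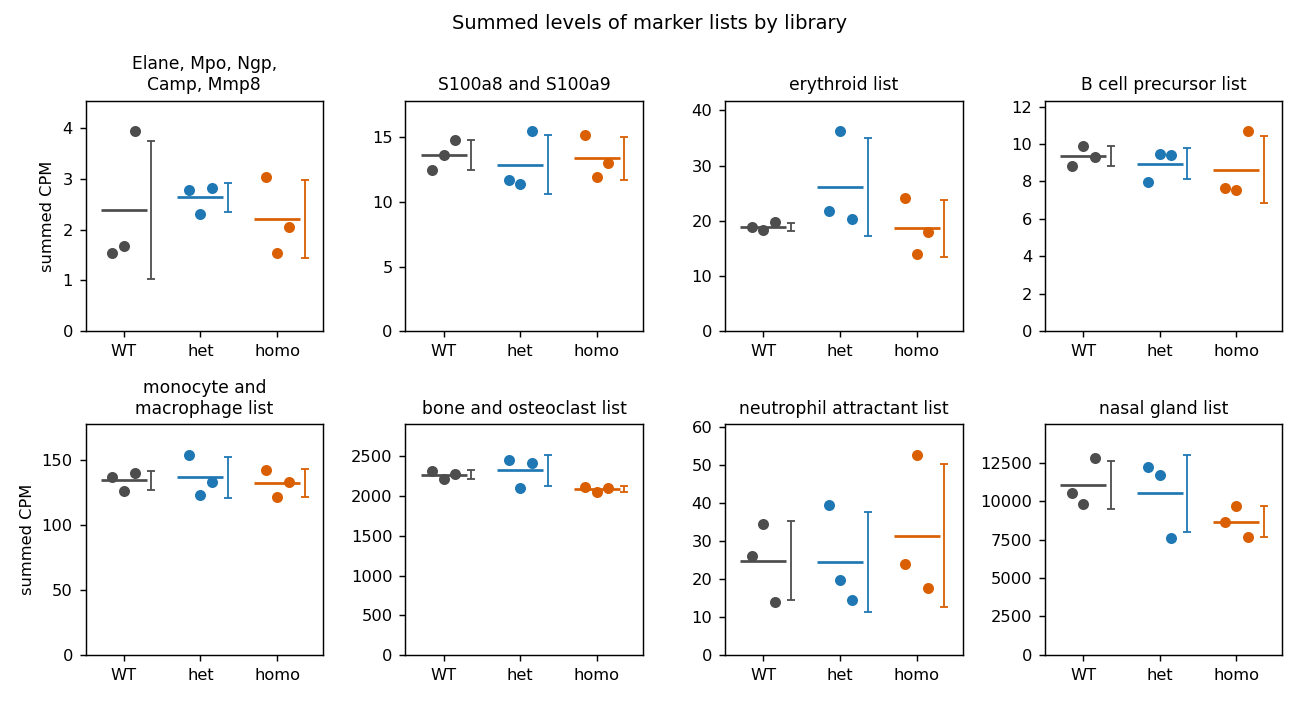
Summed CPM of 5 marrow-stage members, of S100a8 with S100a9, and of 6 marker lists in the 3 libraries of each genotype, each panel with its own linear axis from 0. Points are libraries, horizontal bars means and vertical bars ± 1 SD (n = 3). The marrow-stage members peak at 3.94 CPM in a WT library, the erythroid list at 36.3 CPM in a het library and the attractants at 52.7 CPM in a homo library.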

How the data were processed

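Whole MOE RNA (RNeasy, polyA selection, NEBNext Ultra Directional kit) was sequenced for 9 mice. The submitters' processing notes name Trimmomatic 0.36, HISAT2 2.1.0, HTSeq 0.6.1p1 and DESeq2 1.20.0 with GRCm38 (mm10), while the study's methods name featureCounts as the counter. The gene annotation and strand setting are not given in the sources used here. The deposited table holds raw read counts per gene, made by the authors. Its 5 summary rows (40 to 42.6% of the reads it lists, among them 16.9 to 19.4% that mapped to several places) entered neither library sizes nor tests, and a second, normalized table was not used.

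Genes with at least 10 reads over 9 libraries were tested (20213, all 8 members among them) by the quasi-likelihood test of edgeR 4.0.16 in R 4.3.3, with TMM scaling, genotype as the only term, two-sided tests, Benjamini-Hochberg adjustment and a threshold of 0.05. Groups and replicate numbers came from sample titles. The p-values set each difference between genotypes against the spread between mice within genotypes, as edgeR estimates it with information shared over genes. CPM uses TMM-scaled library sizes, and correlations used log2 CPM with a prior count of 2. Intervals on single libraries are exact Poisson at 95%, and since reads carry no molecular identifiers they cover counting error only. Exon lengths and coordinates are from GENCODE M21, and promoters from RefSeq GRCm38.p6.

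The members and lists were chosen with earlier results of these data known. Named genes were the 8 members, genes of the marker lists that were called plus up to 4 of the most abundant per list, the 10 genes most like the members, and Taar2 to Taar5. Bpifb5, Odam, Obp1a, Muc5b, Dcpp3, Ctsg, Ms4a3, Fcnb, Cybb, Itgb2l, Retnlg, Fpr1, Cebpe, Slc4a1, Prg2, Bglap2, the haemoglobin genes and the genes most like Ltf were named after their values had been seen. Alternatives were DESeq2 size factors, DESeq2 1.42.0, no filter (22058 genes), filterByExpr (17847 genes), only the 6 libraries compared, the replicate number as a block, vomeronasal receptor level as a covariate, and leaving out each library. Leaving out het replicate 3 with homo replicate 3, and summing without Ltf, were added after seeing the data. The code was tested on simulated counts.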

Additional observations from a re-analysis of the deposited data

How the results depend on the processing

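With 3 libraries per genotype and 43 to 248 reads over all libraries for Elane, Mpo, Ngp, Camp and Mmp8, the intervals of these genes were wide. The number of members called stayed at 0 under every alternative except homo against het mice without het replicate 3, where it was 1 (Ltf). Of 426 member values under alternatives, 376 kept their direction and side of the threshold, 49 turned direction and 1 passed the threshold. DESeq2 with default settings gave an adjusted p to 4 (homo against WT), 8 (het against WT) and 6 (homo against het) of the 8 members, and filterByExpr kept 6 members. A single member had an unadjusted p under 0.05 in 7, 3 and 4 of 18 alternatives in homo against WT, het against WT and homo against het mice, among them the replicate block in homo against WT.

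All genes called in homo against WT mice numbered 10 in the fit reported, 70 with DESeq2, 54 with DESeq2 without independent filtering, 48 with only the 6 libraries compared, and 8 to 33 with 1 library left out (33 without het replicate 3). In het against WT mice the number was 1, and it was 3 with either DESeq2 setting, 0 without het replicate 3 and homo replicate 3, and 0 to 1 with 1 library left out. In homo against het mice it was 23, and it was 133 and 126 with the DESeq2 settings, 50 without a filter, 11 with only the 6 libraries compared, 8 with the vomeronasal covariate, 64 without het replicate 3 and homo replicate 3, and 7 to 195 with 1 library left out (195 without het replicate 3). The cause was not tested. The summed CPM of the members was 16, 15.5 and 15.6 without Ltf in WT, het and homo mice. With 1 library left out the sum of all 8 was 575 to 722, 534 to 822 and 368 to 506.

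The replicate number as a block gave 0 calls over all genes in het against WT mice and 41 in homo against het mice, and turned Elane to 0.23 and Camp to 0.024 (log2) in these pairs. Same-numbered libraries mostly did not deviate together (r from -0.16 to 0.3, over 0.1 in 2 of 9 pairs of libraries, 3 of 9 closest to their own number). The 2 pairs over 0.1 were het with homo number 2 (0.25) and number 3 (0.3). The numbers were not used as pairs in the fit reported. These few correlations cannot show whether same-numbered mice were handled together.

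The log2 fold changes below turned direction, none of them called. With the vomeronasal covariate these were S100a8 (0.028), S100a9 (0.22) and Ngp (0.12) in homo against WT, S100a8 (0.0198) in het against WT and S100a8 (0.0081) in homo against het mice. Without het replicate 3 and homo replicate 3 these were S100a9 (0.02), Elane (-0.38) and Ngp (0.08) in homo against WT, Elane (0.09), Mpo (-0.085) and Ltf (0.34) in het against WT, and S100a8 (0.04), Elane (-0.47) and Camp (0.16) in homo against het mice. With 1 library left out, in homo against WT mice S100a8 spanned -0.21 to 0.056, S100a9 -0.13 to 0.072, Elane -0.41 to 2.31, Ngp -0.45 to 0.30, Camp -0.64 to 0.95 and Mmp8 -0.22 to 0.66. In het against WT mice S100a8 spanned -0.16 to 0.10, Elane -0.60 to 2.12, Mpo -0.08 to 0.63, Ngp -0.11 to 0.49, Camp -0.60 to 0.99 and Ltf -0.31 to 0.34. In homo against het mice S100a8 spanned -0.11 to 0.046, S100a9 -0.011 to 0.30 (0.33 without het replicate 3 and homo replicate 3), Elane -0.34 to 0.52, Camp -0.37 to 0.16 and Ltf, which did not turn, -0.90 to -0.26.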
